A study of Ambystoma mexicanum with 12 samples.

Results

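The genes described here encode the receptors through which cells of the axolotl spinal cord sense neurotransmitters. They were taken from the expression table by the pattern of the human gene symbol: GABA receptors, ionotropic and metabotropic glutamate receptors, glycine receptors, nicotinic and muscarinic acetylcholine receptors, and serotonin, dopamine and adrenergic receptors. The patterns matched 90 of the 15091 gene symbols in the table. Of these, 89 encode receptors or receptor subunits. The remaining one, GRID2IP, encodes a scaffold protein of the synapse, and it was kept out of the receptor classes. The receptors comprised 13 GABA-A and 2 GABA-B members, 5 glycine members, 4 AMPA, 5 kainate, 6 NMDA and 2 delta members, 8 metabotropic glutamate members, 14 nicotinic and 3 muscarinic members, 14 serotonin members, 5 dopamine members and 8 adrenergic members.

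Transcript levels were measured by RNA sequencing of pooled spinal cord tissue from white-strain axolotls, in 4 groups of 3 libraries. The 4 dpi inhibitor cords received an inhibitor of the microRNA miR-200, were injured by removing a piece of the cord, and were collected 4 days post injury (dpi). The name miR-200 inhibitor is that of the labels, and the study describes an inhibitor of miR-200a that left the level of miR-200b unchanged. The 4 dpi control cords were injured in the same way and, per the study's description, received a control inhibitor. The uninjured inhibitor cords received the miR-200 inhibitor without injury. The uninjured cords were intact, and whether they had been injected is not stated in the labels. Injected material was placed in the central canal, where the cells that line it are glial cells. Each library is 1 pool of several animals, and sex was not determined at this size. p-values therefore measure the spread between pools.

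Neurotransmitter receptors fall into a pair of broad types. Ionotropic receptors are ion channels that open when the transmitter binds. GABA-A and glycine receptors pass chloride and usually inhibit, whereas AMPA, kainate, NMDA, nicotinic and 5-HT3 receptors pass cations and excite. Metabotropic receptors (GABA-B, mGlu, muscarinic, most serotonin receptors, dopamine and adrenergic receptors) act through G proteins. In the vertebrate spinal cord glutamate excites motor neurons and interneurons, glycine and GABA inhibit them, and serotonin, noradrenaline and dopamine arriving from the brain set their excitability. Acetylcholine from motor neurons acts on the muscle-type nicotinic receptor of skeletal muscle.

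The contigs were named by their best human protein match, so axolotl paralogs with the same best match share 1 value, and a symbol is the closest human gene and not a proven ortholog. The symbols of 81 of the 90 members also occur in the axolotl RefSeq annotation. Values are in TPM, transcript numbers corrected for length and set to sum to 1000000 in every library. A level in TPM is thus a share of the library, and in bulk tissue fewer cells of a type and less RNA per cell cannot be told apart. Single values are listed in the order replicate 5, 6 and 7 for both inhibitor groups, replicate 1, 5 and 6 for 4 dpi control cords, and replicate 1, the unnumbered library and replicate 5 for uninjured cords.

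Both libraries numbered 1 stood apart before any comparison was made. Among 4 dpi control cords, replicate 1 held the highest value of 81 of the 90 members, a tie at 0 included. Its summed level of 18 neuron marker genes was 6772 TPM, against 3121 and 4027 TPM in the others of its group. Over all 12 libraries, uninjured replicate 1 held the highest value of 75 of the 90 members. Its neuron marker sum was 16947 TPM, against 2848 TPM in the unnumbered uninjured library and 5517 TPM in uninjured replicate 5. The neuron sum was 1597 to 1866 TPM in 4 dpi inhibitor cords, 3121 to 6772 TPM in 4 dpi control cords and 2830 to 3932 TPM in uninjured inhibitor cords. Skeletal muscle markers (18 genes measured) ran the other way within the uninjured group, with 13346 TPM in replicate 1, 52106 TPM in the unnumbered library and 36315 TPM in replicate 5. Their sum was 7309 to 8316 TPM in 4 dpi inhibitor cords, 12531 to 24055 TPM in 4 dpi control cords and 5174 to 10782 TPM in uninjured inhibitor cords. No neuron or muscle marker was at 0 in every library. Granulocyte markers (8 genes) summed to 1809 to 2167 TPM in 4 dpi inhibitor cords, 894 to 1111 TPM in 4 dpi control cords, 658 to 774 TPM in uninjured inhibitor cords and 93.7 to 147 TPM in uninjured cords. The part of these cell type markers in the receptor results was not tested.

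**Figure D1:**
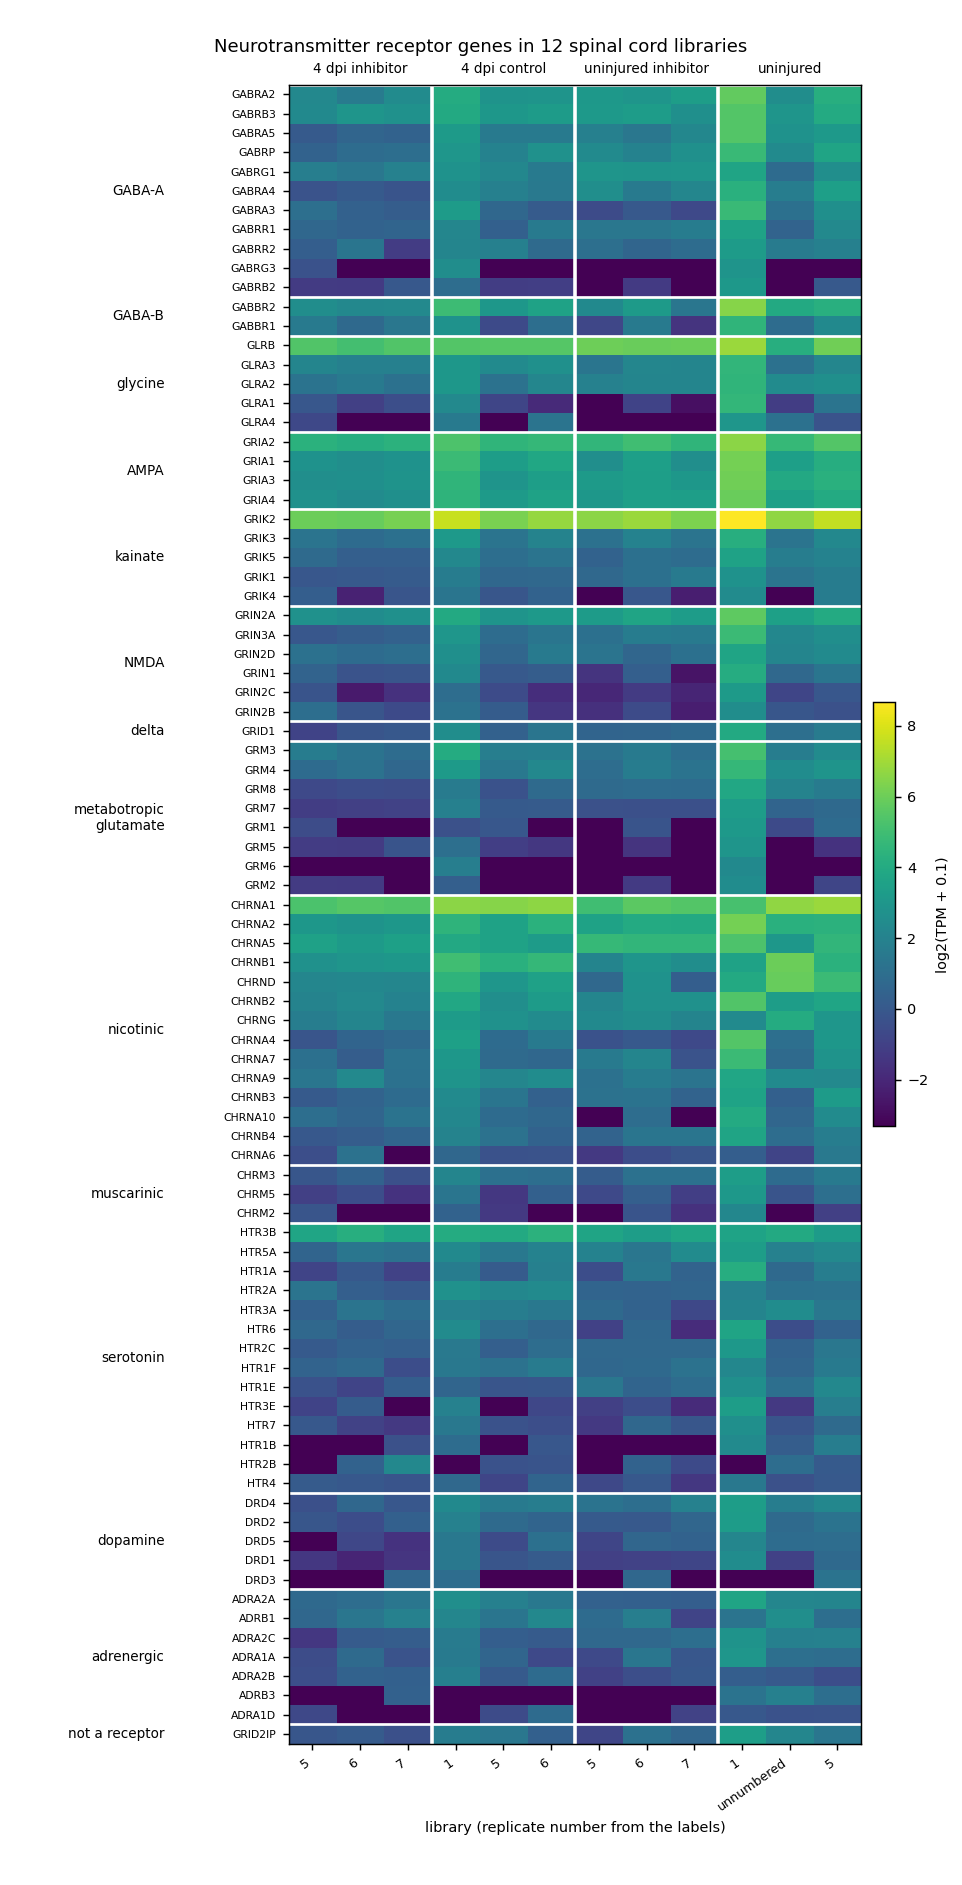
Level of 86 of the 90 members, as log2(TPM + 0.1) in colour, in the 12 libraries (columns, grouped as labelled above) and by receptor class (rows, most abundant member first). The column of uninjured replicate 1 is the brightest for most rows, while CHRNA1, CHRNB1, CHRND and CHRNG, the muscle-type nicotinic subunits, are brighter in the other 2 uninjured libraries.

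Most receptor genes were measured at low levels. The median of the members' mean levels was 3.04 TPM, compared with 9.46 TPM over all genes of the table. Only 19 members reached a mean of at least 10 TPM, and 58 stayed under 5 TPM. The most abundant was GRIK2, a kainate receptor subunit, with a mean of 131 TPM, followed by CHRNA1, GLRB and GRIA2. A mean of at least 1 TPM, the minimum for testing, was reached by 82 members, and 71 of the 90 were above 0 in every library. The 8 members below that minimum were ADRB3, ADRA1D, DRD3, GRM6, GRM2, CHRM2, CHRNA6 and HTR4. Among them GRM2 had the highest single value, 5.6 TPM, and GRM6 reached 5.11 TPM, both in uninjured replicate 1, while GRM6 was listed at 0 in 10 of the 12 libraries.

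Summed over all members, receptor transcripts made up 364 to 394 TPM in 4 dpi inhibitor cords, 541 to 1063 TPM in 4 dpi control cords, 455 to 553 TPM in uninjured inhibitor cords and 717 to 2289 TPM in uninjured cords. The 4 dpi inhibitor libraries were thus the lowest 3 of the 12. Set against the neuron marker sum of the same library, the order did not hold. The receptor sum was 19.5 to 24.7% of the neuron marker sum in 4 dpi inhibitor cords, 15.7 to 17.3% in 4 dpi control cords, 11.8 to 17.5% in uninjured inhibitor cords and 13.5 to 25.2% in uninjured cords. This sum includes the muscle-type nicotinic subunits. They alone were 8.35% of the neuron marker sum in the unnumbered uninjured library, which held the 25.2%. Their part was 0.405 and 3.13% in uninjured replicate 1 and 5, and 3.06 to 3.57% in 4 dpi inhibitor cords.

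Each comparison was fitted with limma on log2(TPM + 0.1) over all 13824 genes that reached the minimum, and a member counts as higher or lower only at a Benjamini-Hochberg adjusted p under 0.05. Fold changes on this scale understate the change of low genes. As the median of all genes moved between groups, results are also given after median-of-ratios scaling, which sets each library to the median gene. Over all genes tested, the scaled median of the log2 fold changes was -0.14, and the deposited one -0.81, for 4 dpi inhibitor over uninjured cords. The same pair of medians was -0.17 and -1.1 for uninjured inhibitor over uninjured cords. Comparisons with uninjured cords share the same 3 uninjured libraries, so their results are not independent of each other.

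In injured cords that received the inhibitor, 45 of the 82 members tested were lower than in uninjured cords as deposited, and 0 were higher. That is 54.9% of the members where 31.2% of all genes were lower. Every class had at least 1 lower member as deposited, and the muscarinic class had 0 after scaling. Scaled by median of ratios, 27 of the same 45 were still lower (32.9% of members, 12% of all genes), and 1 member, the 5-HT3 subunit HTR3B, was higher where 16.6% of all genes were. The median log2 fold change of the members was -1.88, and -1.24 after scaling. No library of the 4 dpi inhibitor group overlapped the uninjured group for 52 of the 82 members, all lower, compared with 41.8% of all genes. The count of 45 fell to 24 without 4 dpi inhibitor replicate 5, to 25 without 4 dpi inhibitor replicate 7 and to 24 without uninjured replicate 1. In those fits 2330, 2065 and 2509 of the 13824 genes were lower. For 20 members the call held whichever single library was left out, and these 20 were also called after scaling. No such count over all genes is given, so this one does not set the members apart.

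For injured cords that received the control inhibitor, set against uninjured cords, 0 of the 82 members passed in either direction with limma. Of all genes 0.904% did. An unadjusted p under 0.05 was reached by 8 members, 1 higher and 7 lower, beside 1020 higher and 390 lower of the 13824 genes. After scaling 0 members passed as well. The members' median log2 fold change was -0.79, or -0.74 after scaling. Without the unnumbered uninjured library 2 members passed, both lower, beside 30 genes lower and 259 higher. The smallest adjusted p was that of HTR1E, a serotonin receptor, with 0.71, 0.456 and 1.09 TPM in 4 dpi inhibitor cords, 1.38, 0.782 and 0.817 TPM in 4 dpi control cords, 2.58, 1.38 and 1.76 TPM in uninjured inhibitor cords, and 6.11, 1.99 and 4.76 TPM in uninjured cords (log2 fold change -1.9 ± 0.56 (SE), adjusted p = 0.184 for 4 dpi control over uninjured cords). GRM8 followed (log2 fold change -1.78 ± 0.63 (SE), adjusted p = 0.315). HTR2A lay above every uninjured library in 4 dpi control cords and did not pass (log2 fold change 1.04 ± 0.44 (SE), adjusted p = 0.444). A fit with a term for each replicate number gave 19 lower and 0 higher members. There the unnumbered library had its own term and so carried no weight in the comparison. In that fit 369 of the 13824 genes were lower and 372 higher.

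The inhibitor without injury was accompanied by 28 lower and 0 higher members of 82 in comparison with uninjured cords. That is 34.1% of the members, and 51.1% of all genes were lower in the same comparison. Scaling left 10 lower (12.2% of members, 17.8% of all genes) and made 4 higher (4.88% of members, 19.4% of all genes). With all 12 libraries and 1 term per group, these shares of members lie below those of all genes. The median log2 fold change was -1.48 as deposited and -0.57 scaled. The count of 28 was 14 without uninjured replicate 1, 15 without uninjured inhibitor replicate 5 and 17 without uninjured inhibitor replicate 7. In those fits 5071, 5009 and 5170 of the 13824 genes were lower. Once the unnumbered uninjured library was set aside, 63 of 82 members were lower, beside 7837 of 13824 genes. The share of members then lay above that of all genes, so the relation rests on that library.

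Within injured cords, the inhibitor against the control inhibitor gave 1 lower member and 0 higher, HTR2A, where 3.19% of all genes were lower. The members' median log2 fold change was -1.01 (-0.44 scaled), beside -0.69 (-0.07 scaled) for all genes. All 3 libraries lay below the 4 dpi control libraries for 44 of 82 members, and 49% of all genes did so. The call of HTR2A was lost after scaling, where 0 of the 13824 genes passed in either direction. The count ranged between 0 and 16 when single libraries were left out, beside 0 to 2471 genes lower. It was 16 without uninjured replicate 1, where 2471 of the 13824 genes were lower. Once the unnumbered uninjured library was set aside it was 8, beside 1593 genes, and without 4 dpi control replicate 5 it was 5, beside 1225 genes.

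Injury within inhibitor-treated cords gave 0 calls among 82 members, where 0.622% of all genes passed. By limma 11 members, 2 higher and 9 lower, had an unadjusted p under 0.05, beside 2405 higher and 466 lower of the 13824 genes. After scaling 1 member passed, GABRA4, with 0.485% of all genes lower on that scale. Here 27 members lay below every uninjured inhibitor library and 4 above, whereas over all genes tested 9.51% lay below and 29.6% above. The interaction of injury and inhibitor passed for 0 members, as deposited or scaled, and for 0.0434% of all genes. Its unadjusted limma p was under 0.05 for 2 members, CHRNA10 and CHRND, both positive. Of the 13824 genes, 910 were positive and 220 negative at that level.

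**Figure D2:**
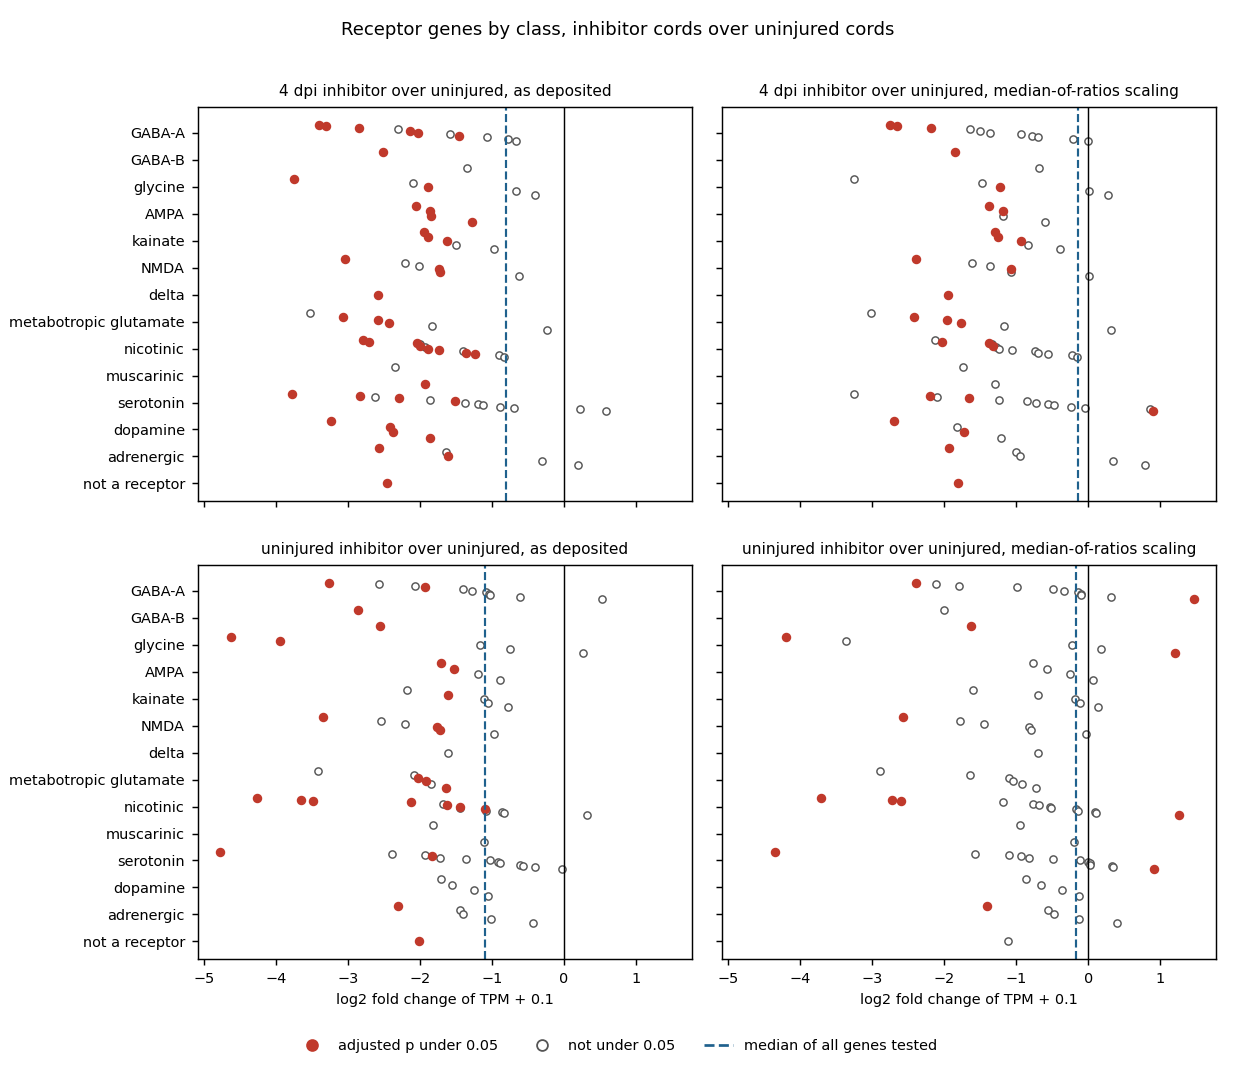
Log2 fold change of 78 of the 82 tested members by receptor class, for 4 dpi inhibitor over uninjured cords (top) and uninjured inhibitor over uninjured cords (bottom), as deposited (left) and after median-of-ratios scaling (right). Filled points passed an adjusted p of 0.05 and the dashed line is the median of all genes tested; in the top left panel most members lie left of that line, at -0.81.

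Inhibitory receptors come first. GABA-A receptors are pentamers in which alpha and beta subunits bind GABA and the gamma subunit places the receptor at synapses. Of the 13 GABA-A genes, 7 were lower in 4 dpi inhibitor cords, 53.8% beside 31.2% of all genes, and 4 after scaling, 30.8% beside 12%. In uninjured inhibitor cords 2 were lower, 15.4% beside 51.1% of all genes, and 1 after scaling, 7.69% beside 17.8%.

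The alpha subunits ranked differently among the groups. GABRA4, which in mammals contributes to extrasynaptic receptors, had 0.739, 0.949 and 0.753 TPM in 4 dpi inhibitor cords, 5.57, 3.62 and 2.74 TPM in 4 dpi control cords, 5.97, 3.0 and 4.42 TPM in uninjured inhibitor cords, and 19.6, 3.33 and 10.7 TPM in uninjured cords. All 3 in 4 dpi inhibitor cords were below the 9 others, and the difference from uninjured cords had the smallest p of any member in that comparison (log2 fold change -3.31 ± 0.57 (SE), adjusted p = 0.00238, scaled -2.66, adjusted p = 0.00321). It was also the single member called for 4 dpi inhibitor over uninjured inhibitor cords on the scaled values (-2.56, adjusted p = 0.0356), though not as deposited (log2 fold change -2.27 ± 0.57 (SE), adjusted p = 0.0831). GABRA5, another subunit of extrasynaptic receptors, showed 0.955, 1.42 and 1.27 TPM in 4 dpi inhibitor cords, 9.03, 2.96 and 2.9 TPM in 4 dpi control cords, 3.63, 2.61 and 4.6 TPM in uninjured inhibitor cords, and 44.2, 6.8 and 8.48 TPM in uninjured cords. Its 4 dpi inhibitor values again lay below all others (log2 fold change -3.41 ± 0.65 (SE), adjusted p = 0.00348, scaled -2.75, adjusted p = 0.0041). GABRA3 differed in another way, with all uninjured inhibitor values below every uninjured value (log2 fold change -3.27 ± 0.91 (SE), adjusted p = 0.0106, scaled -2.39, adjusted p = 0.0294).

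GABRP encodes the pi subunit, known in mammals mainly from tissues outside the nervous system. It had 1.25, 1.8 and 1.9 TPM in 4 dpi inhibitor cords, 7.76, 3.89 and 6.69 TPM in 4 dpi control cords, 5.28, 3.83 and 6.36 TPM in uninjured inhibitor cords, and 27.9, 5.22 and 12.8 TPM in uninjured cords. Its 4 dpi inhibitor libraries were the lowest 3 of the 12 (log2 fold change -2.85 ± 0.52 (SE), adjusted p = 0.003, scaled -2.19, adjusted p = 0.00452). GABRG1, a gamma subunit, was the opposite case. Its values were 3.38, 2.59 and 3.7 TPM in 4 dpi inhibitor cords, 6.89, 4.55 and 2.89 TPM in 4 dpi control cords, 7.43, 7.29 and 7.62 TPM in uninjured inhibitor cords, and 12.9, 1.71 and 5.94 TPM in uninjured cords, and the uninjured inhibitor libraries lay within the uninjured range. As deposited it did not pass for uninjured inhibitor over uninjured cords (log2 fold change 0.53 ± 0.58 (SE), adjusted p = 0.437), and on the scaled values it was higher (1.47, adjusted p = 0.0317).

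GABA-B receptors need both of their subunits, GABBR1 to bind GABA and GABBR2 to couple to the G protein. GABBR2 had 5.73, 4.67 and 4.86 TPM in 4 dpi inhibitor cords, 29.9, 8.03 and 11.9 TPM in 4 dpi control cords, 5.1, 9.1 and 2.55 TPM in uninjured inhibitor cords, and 89.6, 15.4 and 18.5 TPM in uninjured cords. Both inhibitor groups lay below all uninjured libraries (log2 fold change -2.52 ± 0.66 (SE), adjusted p = 0.0126 for 4 dpi inhibitor and log2 fold change -2.56 ± 0.66 (SE), adjusted p = 0.00772 for uninjured inhibitor, each over uninjured cords). The scaled log2 fold changes were -1.84 and -1.62, and both passed. GABBR1 was scarcer, with 2.85, 1.62 and 2.6 TPM in 4 dpi inhibitor cords, 6.89, 0.55 and 1.88 TPM in 4 dpi control cords, 0.478, 2.84 and 0.244 TPM in uninjured inhibitor cords, and 22.8, 1.77 and 5.1 TPM in uninjured cords. It passed only in uninjured inhibitor cords as deposited (log2 fold change -2.86 ± 1.04 (SE), adjusted p = 0.0329, scaled -2.0, adjusted p = 0.102), and not without uninjured replicate 1 or 5 or uninjured inhibitor replicate 5 or 7.

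Glycine receptors combine alpha subunits with the beta subunit GLRB, which anchors them to gephyrin. GLRB was the third most abundant member, with 42.4, 33.7 and 43.1 TPM in 4 dpi inhibitor cords, 43.5, 45.5 and 44.7 TPM in 4 dpi control cords, 64.1, 61.3 and 62.7 TPM in uninjured inhibitor cords, and 116, 18.4 and 67.3 TPM in uninjured cords. It took 59.5 to 91.2% of the summed glycine receptor transcripts in every library. The unnumbered uninjured library was the lowest of all 12 and uninjured replicate 1 the highest, so the uninjured group enclosed the 9 other libraries. GLRB did not pass as deposited for uninjured inhibitor over uninjured cords (log2 fold change 0.26 ± 0.48 (SE), adjusted p = 0.656) and was higher on the scaled values (1.2, adjusted p = 0.0456). Without the unnumbered library its log2 fold change as deposited was -0.5, so the direction rests on that library.

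GLRA3, the most abundant glycine alpha subunit, had 4.28, 3.62 and 3.61 TPM in 4 dpi inhibitor cords, 8.09, 5.27 and 6.3 TPM in 4 dpi control cords, 2.41, 4.48 and 4.32 TPM in uninjured inhibitor cords, and 23.5, 2.15 and 4.42 TPM in uninjured cords. The uninjured group spanned the others and GLRA3 passed in no comparison. GLRA2, the alpha subunit of the developing mammalian cord, was lower in 4 dpi inhibitor cords (log2 fold change -1.89 ± 0.55 (SE), adjusted p = 0.0187, scaled -1.23, adjusted p = 0.0365), a call lost without 4 dpi inhibitor replicate 5 or 7 or uninjured replicate 1. GLRA4 was listed at 0 in all 3 uninjured inhibitor libraries and in 2 of the 4 dpi inhibitor libraries, and at 7.89, 2.13 and 0.731 TPM in uninjured cords.

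Among excitatory receptors the AMPA subunits form the channels of fast glutamate transmission. All 4 were measured in every library and all 4 were lower in 4 dpi inhibitor than in uninjured cords, 100% beside 31.2% of all genes. After scaling 2 of them, GRIA3 and GRIA4, were also lower, 50% beside 12%. GRIA2, the subunit that keeps calcium out of the channel, had 20.4, 17.6 and 21 TPM in 4 dpi inhibitor cords, 40.3, 22.6 and 25 TPM in 4 dpi control cords, 23.7, 31.8 and 22.8 TPM in uninjured inhibitor cords, and 96.2, 25.7 and 43.9 TPM in uninjured cords. Its 4 dpi inhibitor values lay below the uninjured ones (log2 fold change -1.28 ± 0.4 (SE), adjusted p = 0.0249, scaled -0.6, adjusted p = 0.132). GRIA1 had 6.84, 6.07 and 6.75 TPM in 4 dpi inhibitor cords, 28.5, 9.99 and 14 TPM in 4 dpi control cords, 5.93, 10.8 and 5.88 TPM in uninjured inhibitor cords, and 71.6, 10.7 and 17.7 TPM in uninjured cords, also without overlap (log2 fold change -1.85 ± 0.59 (SE), adjusted p = 0.0264, scaled -1.18, adjusted p = 0.0654). Both calls were lost without uninjured replicate 1 and without any 1 of the 4 dpi inhibitor libraries. For uninjured inhibitor over uninjured cords GRIA1 and GRIA3 passed (log2 fold change -1.71 ± 0.59 (SE), adjusted p = 0.0262; log2 fold change -1.52 ± 0.51 (SE), adjusted p = 0.0242) and none of the 4 did after scaling. These 2 calls are 50% of the class, beside 51.1% of all genes, and after scaling 17.8% of all genes were lower. Both calls were lost without uninjured replicate 1 or uninjured inhibitor replicate 5 or 7.

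The mix of AMPA subunits can be read within a library, where a common factor cancels. GRIA2 made up 51.3, 49.96 and 51.2% of summed AMPA transcripts in 4 dpi inhibitor cords and 50.5, 49.8 and 48.2% in uninjured inhibitor cords. Its share was 35.4, 46 and 40.8% in 4 dpi control cords and 32.6, 41.1 and 45.3% in uninjured cords. All 6 libraries with the miR-200 inhibitor were above the 6 without it. Of the 29 subunit shares computed in the AMPA, kainate, NMDA, glycine, GABA-A alpha and muscle nicotinic families, this was the single one that separated the libraries in this way. It was picked after the shares were seen and is given without a test.

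**Figure D3:**
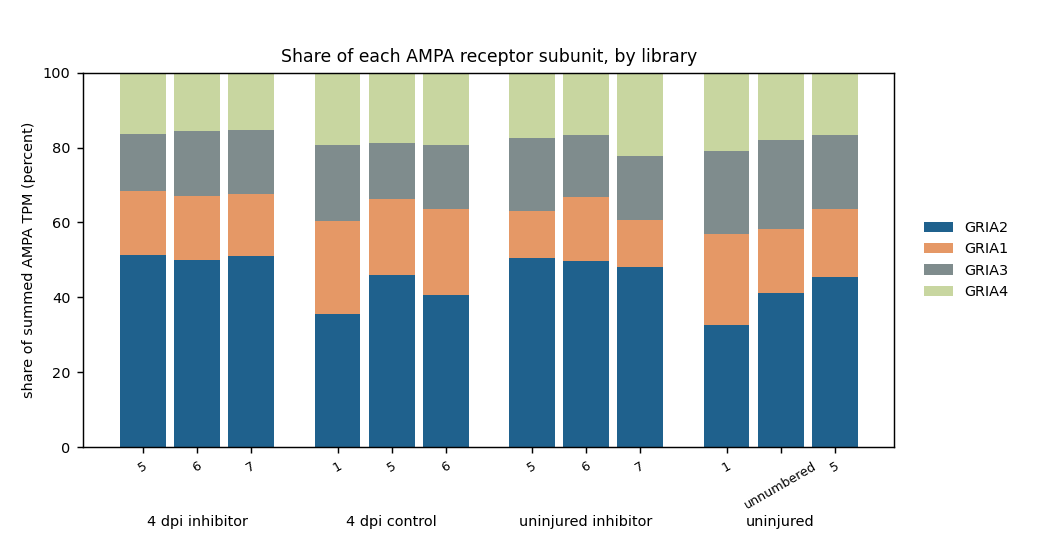
Share of each AMPA receptor subunit in the summed AMPA TPM (percent), 1 bar per library, groups as labelled below the replicate numbers. The GRIA2 segment ends between 48.2 and 51.3% in the 6 inhibitor libraries and between 32.6 and 46% in the 6 others.

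Kainate receptors were dominated by GRIK2, which had 63.4, 59 and 72.8 TPM in 4 dpi inhibitor cords, 204, 77.3 and 108 TPM in 4 dpi control cords, 95.7, 116 and 78.9 TPM in uninjured inhibitor cords, and 407, 103 and 189 TPM in uninjured cords. It held 90.6 to 95.1% of summed kainate transcripts in every library. The 4 dpi inhibitor libraries lay below all others (log2 fold change -1.62 ± 0.44 (SE), adjusted p = 0.0139, scaled -0.94, adjusted p = 0.0466). GRIK3 came next, with 2.34, 1.73 and 2.07 TPM in 4 dpi inhibitor cords, 8.82, 2.33 and 3.99 TPM in 4 dpi control cords, 2.11, 3.89 and 2.37 TPM in uninjured inhibitor cords, and 18.2, 2.35 and 4.79 TPM in uninjured cords. The unnumbered uninjured library was close to the inhibitor libraries and GRIK3 did not pass in any comparison. GRIK1 and GRIK5 were lower in 4 dpi inhibitor cords as deposited and scaled (log2 fold change -1.9 ± 0.51 (SE), adjusted p = 0.0132; log2 fold change -1.95 ± 0.54 (SE), adjusted p = 0.0146), and the call of GRIK5 was lost without 4 dpi inhibitor replicate 7 or uninjured replicate 1.

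NMDA receptors need the GRIN1 subunit, to which GRIN2 subunits add the glutamate site. GRIN2A was the most abundant, with 6.68, 5.52 and 6.3 TPM in 4 dpi inhibitor cords, 15.3, 7.22 and 8.7 TPM in 4 dpi control cords, 9.4, 12.7 and 9.81 TPM in uninjured inhibitor cords, and 51.2, 11 and 15.9 TPM in uninjured cords. Its 4 dpi inhibitor values lay below the others (log2 fold change -1.74 ± 0.48 (SE), adjusted p = 0.0146, scaled -1.07, adjusted p = 0.0353). GRIN3A, a subunit that lowers calcium entry in mammals, had 0.842, 1.05 and 1.24 TPM in 4 dpi inhibitor cords, 7.77, 1.76 and 2.42 TPM in 4 dpi control cords, 2.07, 3.18 and 2.86 TPM in uninjured inhibitor cords, and 28.7, 4.59 and 5.93 TPM in uninjured cords. The 4 dpi inhibitor cords were again the lowest group without overlap (log2 fold change -3.04 ± 0.67 (SE), adjusted p = 0.00613, scaled -2.39, adjusted p = 0.0069). GRIN1 itself was scarce and uneven, between 0.0573 and 17 TPM, and was lower in uninjured inhibitor cords (log2 fold change -3.34 ± 0.99 (SE), adjusted p = 0.0137, scaled -2.58, adjusted p = 0.0363), a call lost without uninjured replicate 1 or uninjured inhibitor replicate 7.

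The delta receptors are related to the ionotropic glutamate receptors and bind cerebellin at synapses. GRID1 had 0.429, 0.804 and 0.897 TPM in 4 dpi inhibitor cords, 5.82, 1.23 and 2.42 TPM in 4 dpi control cords, 1.34, 1.39 and 1.6 TPM in uninjured inhibitor cords, and 15.3, 2.0 and 3.12 TPM in uninjured cords, and was lower in 4 dpi inhibitor cords (log2 fold change -2.59 ± 0.73 (SE), adjusted p = 0.0162, scaled -1.95, adjusted p = 0.0255). That call was lost without uninjured replicate 1 or 4 dpi inhibitor replicate 5. The scaffold gene GRID2IP was lower in 4 dpi inhibitor cords as well (log2 fold change -2.45 ± 0.65 (SE), adjusted p = 0.0128, scaled -1.81, adjusted p = 0.0284).

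The metabotropic glutamate receptors adjust transmission, GRM4, GRM7 and GRM8 mainly from the presynaptic side. GRM3, the most abundant of the class, had 3.2, 2.24 and 1.78 TPM in 4 dpi inhibitor cords, 16.8, 3.42 and 3.57 TPM in 4 dpi control cords, 2.2, 2.92 and 1.93 TPM in uninjured inhibitor cords, and 35.2, 3.25 and 5.43 TPM in uninjured cords. Values ran highest in the libraries numbered 1 and GRM3 passed in no comparison. GRM4 had 1.72, 2.18 and 1.52 TPM in 4 dpi inhibitor cords, 9.14, 2.72 and 4.67 TPM in 4 dpi control cords, 1.87, 3.2 and 2.27 TPM in uninjured inhibitor cords, and 25.2, 5.52 and 7.2 TPM in uninjured cords, and was lower in 4 dpi inhibitor cords (log2 fold change -2.43 ± 0.57 (SE), adjusted p = 0.00787, scaled -1.76, adjusted p = 0.00879) and, as deposited, in uninjured inhibitor cords (log2 fold change -2.02 ± 0.57 (SE), adjusted p = 0.0111, scaled -1.1, adjusted p = 0.0505). GRM8 had 0.53, 0.624 and 0.592 TPM in 4 dpi inhibitor cords, 3.03, 0.714 and 1.7 TPM in 4 dpi control cords, 1.66, 1.77 and 1.76 TPM in uninjured inhibitor cords, and 14.4, 3.96 and 3.05 TPM in uninjured cords. The 3 values of 4 dpi inhibitor cords were the lowest of the 12 and close to each other (log2 fold change -3.06 ± 0.63 (SE), adjusted p = 0.00459, scaled -2.43, adjusted p = 0.00505). In all, 3 of the 6 tested members were lower in 4 dpi inhibitor cords, 50% beside 31.2% of all genes. The same number passed after scaling, 50% beside 12%.

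Nicotinic receptors are pentamers too, and the subunits divide by tissue. CHRNA1, CHRNB1, CHRND and CHRNG build the receptor of skeletal muscle, CHRNG being the subunit of the immature form. The others build receptors of neurons and, for CHRNA9 and CHRNA10, of hair cells. CHRNA1 was the second most abundant member, with 37.9, 46.1 and 41.9 TPM in 4 dpi inhibitor cords, 96.9, 89.5 and 98.7 TPM in 4 dpi control cords, 31.3, 50.4 and 44.4 TPM in uninjured inhibitor cords, and 35.7, 101 and 115 TPM in uninjured cords. It passed in no comparison as deposited or scaled, and its lowest uninjured value lay in replicate 1, where most other receptors peaked. CHRNB1 had 6.54, 7.54 and 8.11 TPM in 4 dpi inhibitor cords, 31.6, 19.6 and 25.1 TPM in 4 dpi control cords, 4.1, 7.6 and 5.72 TPM in uninjured inhibitor cords, and 12.1, 62.2 and 20.3 TPM in uninjured cords. It was lower in both inhibitor groups than in uninjured cords as deposited (log2 fold change -1.74 ± 0.48 (SE), adjusted p = 0.0154 after injury; log2 fold change -2.12 ± 0.48 (SE), adjusted p = 0.00453 without), and passed in neither after scaling (-1.06, adjusted p = 0.168; -1.18, adjusted p = 0.11).

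CHRND had 4.46, 4.6 and 4.38 TPM in 4 dpi inhibitor cords, 22.3, 7.83 and 11.5 TPM in 4 dpi control cords, 1.55, 6.88 and 1.08 TPM in uninjured inhibitor cords, and 15.6, 57.9 and 29.1 TPM in uninjured cords. The uninjured libraries stood above all those of both inhibitor groups. It was lower in 4 dpi inhibitor cords (log2 fold change -2.71 ± 0.64 (SE), adjusted p = 0.00797, scaled -2.03, adjusted p = 0.033) and had the smallest p of any member in uninjured inhibitor cords (log2 fold change -3.65 ± 0.64 (SE), adjusted p = 0.002, scaled -2.73, adjusted p = 0.00826). The summed muscle-type subunits were 52.3, 62.4 and 57.1 TPM in 4 dpi inhibitor cords, 160.4, 123.5 and 141 TPM in 4 dpi control cords, 41.96, 70.6 and 55.3 TPM in uninjured inhibitor cords, and 68.6, 238 and 173 TPM in uninjured cords. Set against the skeletal muscle marker sum of the same library they were 0.715 to 0.751% in 4 dpi inhibitor cords, 0.667 to 0.986% in 4 dpi control cords, 0.655 to 0.811% in uninjured inhibitor cords and 0.456 to 0.514% in uninjured cords. Relative to muscle markers the uninjured libraries thus had the lowest 3 values, although 2 of them had the highest sums in TPM. Of the muscle markers themselves, 15 of 18 were lower in 4 dpi inhibitor than in uninjured cords, 83.3% beside 31.2% of all genes. After scaling 3 were, 16.7% beside 12%. The count of 15 was 9 without 4 dpi inhibitor replicate 5 or 7 or the unnumbered uninjured library. In those fits 2330, 2065 and 5161 of the 13824 genes were lower. Uninjured inhibitor cords also had 15 of the 18 muscle markers lower than uninjured cords, 83.3% beside 51.1% of all genes. Scaling left 8 of them lower there, 44.4% beside 17.8%.

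Of the 9 other tested nicotinic genes, 5 were lower in 4 dpi inhibitor cords and 5 in uninjured inhibitor cords, 55.6% each time, beside 31.2% and 51.1% of all genes. After scaling 2 were lower in each, 22.2% beside 12% and 17.8% of all genes. CHRNA2 had 7.94, 7.08 and 7.92 TPM in 4 dpi inhibitor cords, 21.8, 12 and 20.2 TPM in 4 dpi control cords, 12, 16.2 and 15.5 TPM in uninjured inhibitor cords, and 72.5, 19.6 and 20.6 TPM in uninjured cords. Its 4 dpi inhibitor libraries were the lowest 3 of all (log2 fold change -2.0 ± 0.44 (SE), adjusted p = 0.00582, scaled -1.33, adjusted p = 0.0115). In uninjured inhibitor cords it passed as deposited (log2 fold change -1.09 ± 0.44 (SE), adjusted p = 0.0476), a call that 9 of the 12 fits with 1 library left out did not give, and that was lost with scaling (-0.15, adjusted p = 0.74). CHRNA4, which pairs with CHRNB2 in the commonest brain nicotinic receptor, was lower in uninjured inhibitor cords (log2 fold change -3.48 ± 0.93 (SE), adjusted p = 0.0086, scaled -2.6, adjusted p = 0.0227). CHRNA10 was lower there too (log2 fold change -4.26 ± 1.1 (SE), adjusted p = 0.00746, scaled -3.72, adjusted p = 0.0202). Its values were 1.94, 1.42 and 2.26 TPM in 4 dpi inhibitor cords, 4.54, 1.75 and 1.51 TPM in 4 dpi control cords, 0, 1.85 and 0 TPM in uninjured inhibitor cords, and 15.7, 1.44 and 5.49 TPM in uninjured cords, so that 2 of the 3 uninjured inhibitor libraries were listed at 0. CHRNA5, an accessory subunit, was 1 of the 4 members higher in uninjured inhibitor cords only after scaling (log2 fold change 0.31 ± 0.45 (SE), adjusted p = 0.563, scaled 1.26, adjusted p = 0.0228).

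**Figure D4:**
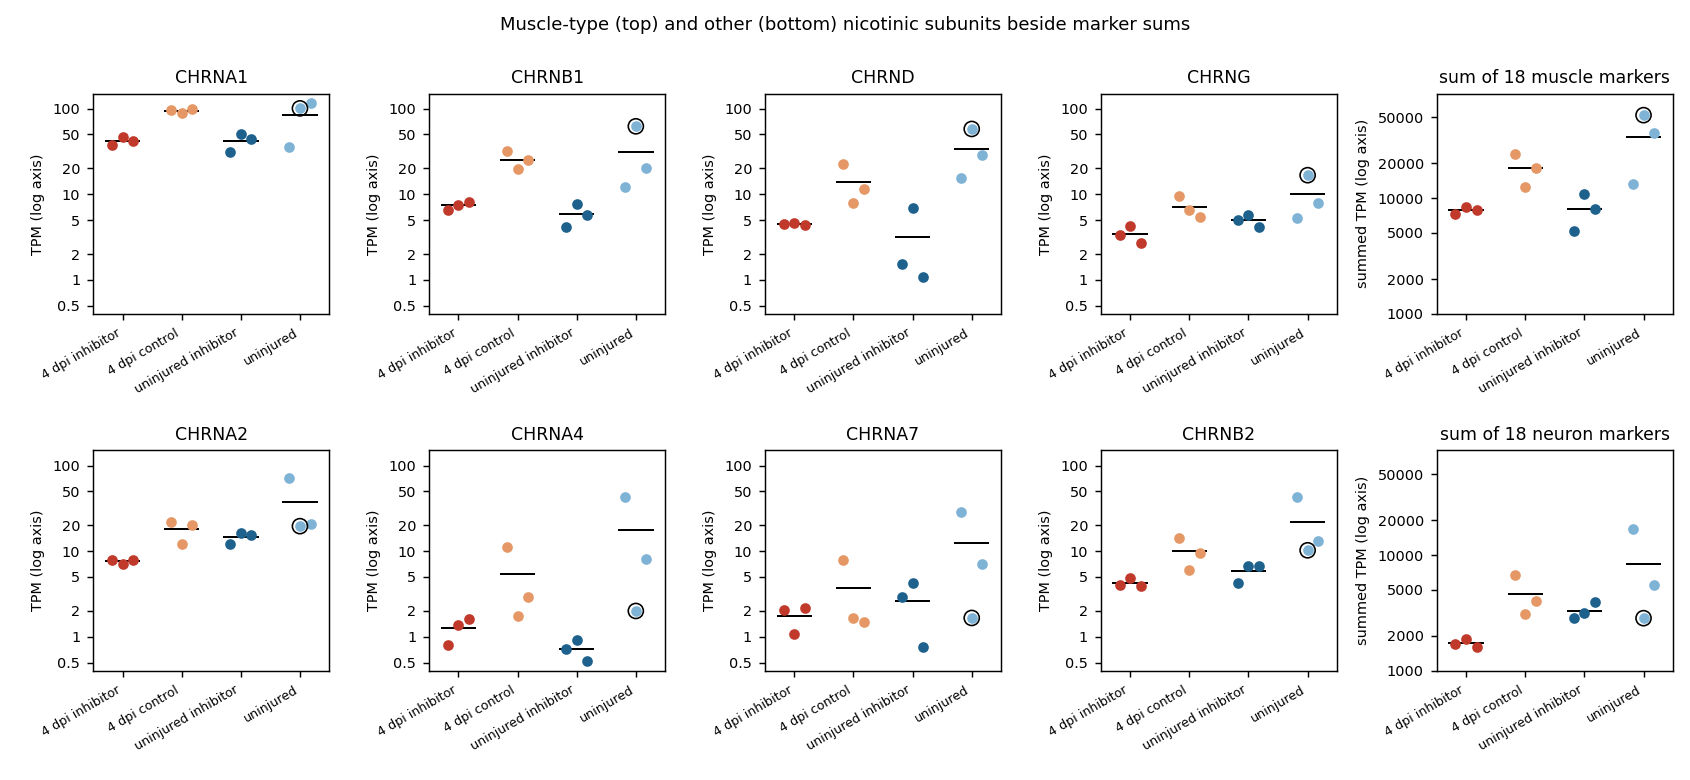
Muscle-type nicotinic subunits and the summed 18 skeletal muscle markers (top row) and 4 other nicotinic subunits and the summed 18 neuron markers (bottom row), in TPM on log axes, 1 point per library with the group mean as a line and the unnumbered uninjured library ringed. In uninjured cords the muscle-type subunits are lowest in replicate 1 (15.6 TPM for CHRND) and the other subunits highest there (72.5 TPM for CHRNA2).

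Muscarinic receptors were at low levels throughout. CHRM3, which couples to calcium release, had 0.815, 1.28 and 0.669 TPM in 4 dpi inhibitor cords, 4.26, 2.03 and 1.93 TPM in 4 dpi control cords, 1.01, 2.1 and 2.13 TPM in uninjured inhibitor cords, and 10.1, 1.71 and 2.84 TPM in uninjured cords. Levels were lower in 4 dpi inhibitor cords as deposited (log2 fold change -1.94 ± 0.64 (SE), adjusted p = 0.0305) and did not pass after scaling (-1.29, adjusted p = 0.0654) or without 4 dpi inhibitor replicate 5 or 7 or uninjured replicate 1. CHRM5 had 0.386, 0.62 and 0.236 TPM in 4 dpi inhibitor cords, 2.41, 0.284 and 1.18 TPM in 4 dpi control cords, 0.517, 1.14 and 0.366 TPM in uninjured inhibitor cords, and 8.42, 0.763 and 2.0 TPM in uninjured cords. Its 4 dpi inhibitor values lay under every uninjured value, and no comparison passed.

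Serotonin receptors, the targets of fibres descending from the brainstem, included a member with values close to each other in all libraries. HTR3B, a subunit of the 5-HT3 channel, had 13.3, 18 and 12.5 TPM in 4 dpi inhibitor cords, 16.3, 15.3 and 20.7 TPM in 4 dpi control cords, 12.9, 10.2 and 13.2 TPM in uninjured inhibitor cords, and 12.5, 15.6 and 9.6 TPM in uninjured cords. All 12 values fell between 9.6 and 20.7 TPM, and the uninjured range overlapped that of every other group. The 4 dpi control values lay above those of uninjured inhibitor cords. Its log2 fold changes over uninjured cords did not pass as deposited (log2 fold change 0.23 ± 0.27 (SE), adjusted p = 0.498 for 4 dpi inhibitor; log2 fold change -0.03 ± 0.27 (SE), adjusted p = 0.922 for uninjured inhibitor). Scaled, it was higher in both, and in the second case the scaling turned the direction (0.9, adjusted p = 0.0461; 0.91, adjusted p = 0.0373). HTR5A had 1.34, 2.48 and 2.2 TPM in 4 dpi inhibitor cords, 4.99, 2.7 and 3.83 TPM in 4 dpi control cords, 3.85, 2.49 and 5.32 TPM in uninjured inhibitor cords, and 9.98, 3.76 and 4.95 TPM in uninjured cords, and was lower in 4 dpi inhibitor cords as deposited (log2 fold change -1.51 ± 0.46 (SE), adjusted p = 0.0225, scaled -0.85, adjusted p = 0.106), a call lost without the same libraries as that of CHRM3.

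HTR2A, a receptor that raises the excitability of motor neurons in mammals, was the single member called for the inhibitor against the control inhibitor in injured cords. It had 2.34, 1.12 and 0.918 TPM in 4 dpi inhibitor cords, 6.63, 4.59 and 5.18 TPM in 4 dpi control cords, 1.37, 1.29 and 1.38 TPM in uninjured inhibitor cords, and 3.73, 2.1 and 2.16 TPM in uninjured cords. The 4 dpi control values were above those of both inhibitor groups and of uninjured cords, and the 4 dpi inhibitor values lay all below the 4 dpi control values (log2 fold change -1.93 ± 0.44 (SE), adjusted p = 0.0466, scaled -1.31, adjusted p = 0.1). That call was made in 3 of the 12 fits with 1 library left out, and the adjusted p reached 0.208. After scaling 0 of the 13824 genes passed in either direction. Without 4 dpi control replicate 1 or 6, or 4 dpi inhibitor replicate 5 or 7, 0 genes were lower. The same held without uninjured replicate 5 or any 1 of the uninjured inhibitor libraries. HTR1B, a presynaptic receptor, was listed at 0 in all 3 uninjured inhibitor libraries, so no fold change is given there. Its other values were 0, 0 and 0.691 TPM in 4 dpi inhibitor cords, 1.76, 0 and 0.869 TPM in 4 dpi control cords and 5.2, 1.06 and 3.25 TPM in uninjured cords (adjusted p = 0.00852 for uninjured inhibitor over uninjured cords; 0.0182 scaled). HTR1E and HTR1A were lower in 4 dpi inhibitor cords (log2 fold change -2.29 ± 0.56 (SE), adjusted p = 0.00897; log2 fold change -2.83 ± 0.84 (SE), adjusted p = 0.0196), both also after scaling, and the call of HTR1A was lost without 4 dpi inhibitor replicate 5 or 7 or uninjured replicate 1.

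All 4 tested dopamine receptors were lower in 4 dpi inhibitor cords, 100% beside 31.2% of all genes. After scaling 2 of them, DRD4 and DRD5, were lower as well, 50% beside 12%. DRD4, an inhibitory D2-type receptor, had 0.656, 1.52 and 0.842 TPM in 4 dpi inhibitor cords, 5.06, 2.89 and 3.32 TPM in 4 dpi control cords, 2.27, 1.91 and 3.7 TPM in uninjured inhibitor cords, and 10.2, 3.3 and 4.52 TPM in uninjured cords. The 4 dpi inhibitor libraries were the lowest 3 of all (log2 fold change -2.38 ± 0.51 (SE), adjusted p = 0.00521, scaled -1.73, adjusted p = 0.00835). DRD2 had 0.835, 0.624 and 1.19 TPM in 4 dpi inhibitor cords, 3.71, 1.7 and 1.35 TPM in 4 dpi control cords, 0.939, 0.926 and 1.43 TPM in uninjured inhibitor cords, and 9.79, 1.69 and 2.24 TPM in uninjured cords, and it passed as deposited (log2 fold change -1.86 ± 0.66 (SE), adjusted p = 0.0401) but not scaled (-1.21, adjusted p = 0.107). That call was lost in 6 of the 12 fits with 1 library left out, and the call of DRD1 was lost in 9. DRD5, a stimulatory D1-type receptor, was listed at 0 in 1 of the 4 dpi inhibitor libraries (log2 fold change -3.23 ± 0.83 (SE), adjusted p = 0.0113, scaled -2.7, adjusted p = 0.0188). No dopamine receptor passed in uninjured inhibitor cords, where 51.1% of all genes were lower.

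Adrenergic receptors are the targets of noradrenaline and adrenaline, and 2 of the 6 tested were lower in either inhibitor group than in uninjured cords, 33.3% beside 31.2% of all genes with injury and 51.1% without. After scaling 1 was lower in each, 16.7% beside 12% and 17.8%. ADRA2A, the alpha-2A receptor that dampens transmitter release, had 1.61, 1.83 and 2.52 TPM in 4 dpi inhibitor cords, 5.99, 3.66 and 2.73 TPM in 4 dpi control cords, 1.21, 1.2 and 1.1 TPM in uninjured inhibitor cords, and 12.7, 4.38 and 4.23 TPM in uninjured cords. It was lower in uninjured inhibitor cords (log2 fold change -2.31 ± 0.48 (SE), adjusted p = 0.00328, scaled -1.4, adjusted p = 0.012), where the 3 values lay between 1.1 and 1.21 TPM. In 4 dpi inhibitor cords it passed as deposited (log2 fold change -1.61 ± 0.48 (SE), adjusted p = 0.0206) and not scaled (-0.95, adjusted p = 0.0664), nor without 4 dpi inhibitor replicate 5 or 6 or uninjured replicate 1. ADRA2C had 0.289, 0.973 and 1.06 TPM in 4 dpi inhibitor cords, 3.04, 1.11 and 0.997 TPM in 4 dpi control cords, 1.58, 1.54 and 1.91 TPM in uninjured inhibitor cords, and 6.96, 3.63 and 3.73 TPM in uninjured cords, with uninjured cords above all 9 other libraries (log2 fold change -2.57 ± 0.58 (SE), adjusted p = 0.00676, scaled -1.93, adjusted p = 0.0118).

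**Figure D5:**
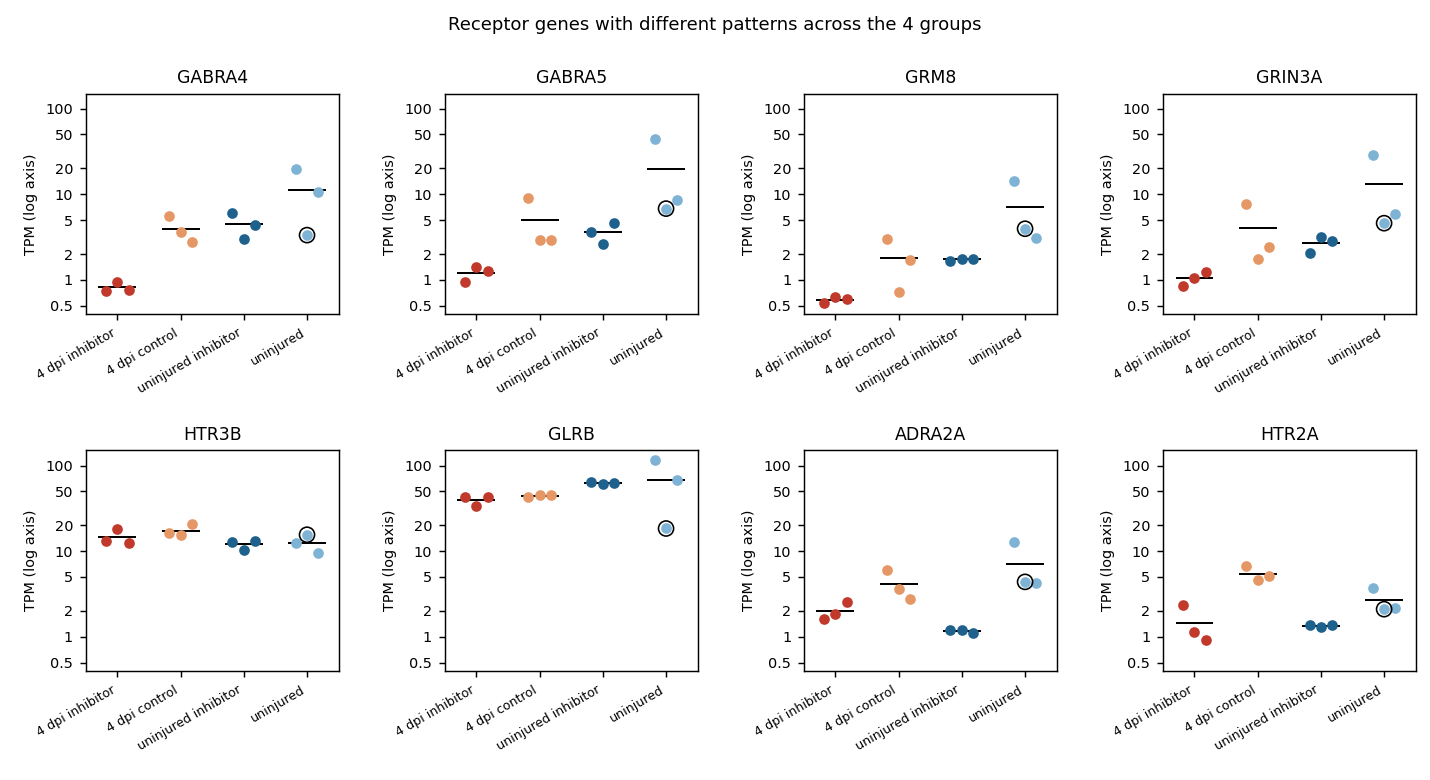
Levels (TPM, log axis) of 8 receptor genes in the 4 groups, 1 point per library, with the group mean as a line and the unnumbered uninjured library ringed. GABRA4, GABRA5, GRM8 and GRIN3A have their lowest 3 values in 4 dpi inhibitor cords, HTR3B stays between 9.6 and 20.7 TPM, the uninjured range of GLRB encloses the other groups, ADRA2A lies between 1.1 and 1.21 TPM in uninjured inhibitor cords, and HTR2A is highest in 4 dpi control cords.

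Transcripts of proteins that hold receptors at the synapse were counted in the same comparisons. Of 43 tested postsynaptic partners (scaffolds, auxiliary subunits, adhesion proteins and the components of the neuromuscular junction), 19 were lower and 0 higher in 4 dpi inhibitor than in uninjured cords, 44.2% beside 31.2% of all genes. After scaling 11 were lower, 25.6% beside 12%. Their median log2 fold change was -1.49. Without uninjured replicate 1 the count was 11 (25.6%, beside 18.1% of all genes). It was 10, 11 and 9 without 4 dpi inhibitor replicate 5, 6 and 7, where 16.9%, 25.7% and 14.9% of all genes were lower. Without replicate 6 the share of partners, 25.6%, was thus no higher than that of all genes. Among the partners DLG3, a scaffold of NMDA receptors, averaged 4.08 ± 0.846 TPM in 4 dpi inhibitor cords and 12.9 ± 3.92 TPM in uninjured cords (SD, n = 3 each; log2 fold change -1.6 by limma, adjusted p = 0.00440, scaled -0.94, adjusted p = 0.0164). AGRN, which organizes the neuromuscular junction, averaged 2.18 ± 0.236 TPM and 10.3 ± 5.35 TPM in the same groups (-2.08, adjusted p = 0.00458, scaled -1.41). COLQ, the anchor of acetylcholinesterase, and KCTD8, an auxiliary GABA-B subunit, were lower too, with log2 fold changes of -3.09 and -2.45 (adjusted p = 0.00542 and 0.00600), and both passed after scaling.

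In uninjured inhibitor cords 23 partners were lower and 0 higher, 53.5% beside 51.1% of all genes. After scaling 12 were lower, 27.9% beside 17.8%. The count of 23 was 14 of 43 without uninjured inhibitor replicate 5 or 7, where 5009 and 5170 of the 13824 genes were lower. It was 16 without uninjured replicate 1, beside 5071 genes. The shares of partners were then close to or below those of all genes. The smallest p were those of HOMER3, a scaffold of group I mGlu receptors, KCTD12, LRP4 and COLQ (log2 fold changes -1.68, -2.92, -3.09 and -2.96). In all 7 partners named here uninjured replicate 1 held the highest value of its group, as for COLQ, with 28.3, 7.23 and 4.97 TPM in uninjured cords. Within injured cords 0 partners passed.

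Transmitter synthesis and vesicle loading belong to the sending side of the synapse. Of 17 tested genes, 7 were lower and 0 higher in 4 dpi inhibitor cords, 41.2% beside 31.2% of all genes, and 3 were lower after scaling, 17.6% beside 12%. The count of 7 was 4 without uninjured replicate 1 or 4 dpi inhibitor replicate 7, and 11 without the unnumbered uninjured library. In those fits 2509, 2065 and 5161 of the 13824 genes were lower. In uninjured inhibitor cords 9 were lower and 0 higher, 52.9% beside 51.1% of all genes, and after scaling 5 were lower, 29.4% beside 17.8%, and 1 higher, TPH2. The count of 9 was 3 without uninjured replicate 1 (17.6%, beside 36.7% of all genes). It was 4 and 5 without uninjured inhibitor replicate 5 and 7, where 5009 and 5170 of the 13824 genes were lower.

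SLC18A3, the vesicular acetylcholine transporter of motor neurons, had 11.1, 9.22 and 6.99 TPM in 4 dpi inhibitor cords, against 346 TPM in uninjured replicate 1, 53.5 TPM in the unnumbered library and 78.9 TPM in replicate 5 (log2 fold change -3.65 by limma, adjusted p = 0.00244, scaled -2.97, adjusted p = 0.00286). SLC5A7, which takes up choline, and SLC17A6, which loads glutamate, were lower too (-3.08 and -1.78; adjusted p = 0.00588 and 0.0113), and passed after scaling. GAD1, which makes GABA, led in uninjured inhibitor cords, with 1.82, 4.91 and 1.41 TPM there, against 45.8, 11.5 and 8.8 TPM in uninjured cords (log2 fold change -2.78, adjusted p = 0.00424, scaled -1.86, adjusted p = 0.0123). The highest uninjured value of both SLC18A3 and GAD1 was that of replicate 1.

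Of the 18 neuron markers, 12 were lower in 4 dpi inhibitor cords, 66.7% beside 31.2% of all genes, and 8 after scaling, 44.4% beside 12%. In uninjured inhibitor cords 13 were lower and 1 higher, 72.2% lower beside 51.1% of all genes. After scaling 8 were lower and 1 higher, 44.4% lower beside 17.8%. The count of 13 was 7 of 18 without uninjured replicate 1, where 5071 of 13824 genes were lower, so the 2 shares were then close. It was 8 without uninjured inhibitor replicate 5 or 7, where 5009 and 5170 genes were lower. Other lists moved in 4 dpi inhibitor cords too. Of 13 ependymoglial and astroglial markers 8 were lower and 1 higher. Of 11 oligodendrocyte lineage markers 6 were lower. The lower shares were 61.5% and 54.5%, beside 31.2% of all genes, and 23.1% and 27.3% after scaling, beside 12%. Lower skin markers were 2 of 8, and lower endothelial and smooth muscle markers 1 of 10. All 12 macrophage and microglia markers were higher, beside 1298 of the 13824 genes.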

How the data were processed

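The authors assembled a transcriptome from the pooled reads with Trinity and named each contig by its best BLASTX match among human proteins. The submitters' processing notes name Bowtie 0.12.1, RSEM 1.1.6 and DESeq2 1.16.1. The deposited TPM values were made by the authors from RSEM estimates summed over transcripts with the same human symbol, so paralogs can share 1 value. Each library sums to 1000000 TPM, its read depth is unknown, and no counting interval is given. The DESeq2 results were not used here.

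Symbols turned into dates (25) were restored. log2(TPM + 0.1) was fitted with limma 3.58.1 in R 4.3.3 with 1 term per group, all 12 libraries and a trended prior, over the 13824 genes whose mean reached 1 TPM, with Benjamini-Hochberg adjustment. The fit was tested on simulated data. The members and the gene lists were chosen with earlier results of these data known. Apart from the members not reported, values in every library are given for the 2 most abundant members of each class, with GABA-A and GABA-B as 1 class, and for up to 8 called members per comparison and direction with the smallest p, and other members named were chosen after their values were seen. The alternatives were median-of-ratios scaling, a pseudocount of 1, no minimum, a minimum of 5 TPM, no trend, only the groups compared, a replicate block, and libraries left out. Of these, scaling without both libraries numbered 1 and scaling without uninjured replicate 1 were added after seeing the data. The values of 4 members are not reported here, although all counts, sums and medians include them. No nucleotide or protein sequence was used here.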

Additional observations from a re-analysis of the deposited data

How the results depend on the processing

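The counts of members called moved with the setting. For 4 dpi inhibitor over uninjured cords the count of 45 lower was 27 lower and 1 higher with median-of-ratios scaling. It was 23 lower of the 32 tested with a minimum mean of 5 TPM, beside 3546 of 9750 genes. With scaling it was 16 lower without both libraries numbered 1 and 15 lower without uninjured replicate 1. In these 2 settings 1449 and 1156 of the 13824 genes were lower. Single libraries left out gave 24 to 62, all lower, beside 2065 to 5161 of the 13824 genes. For uninjured inhibitor over uninjured cords the count of 28 lower was 10 lower and 4 higher with scaling. It was 12 lower of the 32 tested with the minimum of 5 TPM, beside 4895 of 9750 genes. With only the groups compared it was 15 lower, beside 4625 of the 13824 genes. With scaling and without both libraries numbered 1 it was 8 lower and 3 higher, beside 1910 genes lower and 2558 higher. With scaling and without uninjured replicate 1 it was 3 lower and 3 higher, beside 1632 genes lower and 2054 higher. Single libraries left out gave 14 to 63, all lower, beside 5009 to 7837 genes. For 4 dpi inhibitor over 4 dpi control cords the count of 1 was 0 with scaling, alone or in both combinations with libraries left out. Of the 13824 genes, 0 were lower with scaling alone. With scaling, 1 gene was lower without both libraries numbered 1 and 2 without uninjured replicate 1. The count was also 0 with no trend and without both libraries numbered 1, beside 0 and 3 genes lower. With the minimum of 5 TPM it was 3 lower of 32, beside 1134 of 9750 genes. Only the groups compared gave 11 lower, beside 2222 of the 13824 genes. Single libraries left out gave 0 to 16, beside 0 to 2471 genes lower. For 4 dpi inhibitor over uninjured inhibitor cords the count of 0 was 1 lower with scaling, beside 67 genes lower. It was 7 lower with only the groups compared, beside 188 genes, and 2 lower without both libraries numbered 1, beside 128. With scaling it was 12 lower without both and 9 lower without uninjured replicate 1, beside 445 and 310 genes. It was 0 to 2 with single libraries left out, beside 0 to 95 genes lower and 3 to 990 higher. For 4 dpi control over uninjured cords single libraries left out gave 0 to 2, beside 2 to 42 genes lower and 75 to 259 higher. The interaction stayed at 0. The cause was not tested. With single libraries left out, the log2 fold change over uninjured cords in uninjured inhibitor cords ran between -0.50 and 0.83 for GLRB, -0.33 and 0.83 for CHRNA5 and -0.23 and 1.19 for GABRG1, in each case lowest without the unnumbered uninjured library and highest without uninjured replicate 1, and between -0.21 and 0.13 for HTR3B. HTR3B was also at 0.91 with scaling, 0.08 without uninjured inhibitor replicate 6 and 0.71 in both combinations of scaling and libraries left out, and CHRNA2 at 0.26 in both. Over 69 results of named members and 22 alternatives, 1238 values kept their direction and side of the threshold, 53 gained a call, 189 lost one and 12 turned.

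Libraries that share a replicate number had correlations of deviations between -0.307 and 0.507 over 11 pairs, so the numbers did not pair the samples throughout. The 4 dpi control and uninjured groups share only the numbers 1 and 5, at 0.507 and 0.199, and 0 members passed between them without the block. With a replicate block the unnumbered uninjured library had its own term, so it carried no weight in any comparison of that fit. The count was then 46 for 4 dpi inhibitor over uninjured, all lower, beside 3255 of the 13824 genes lower. It was 42 for uninjured inhibitor over uninjured, all lower, beside 5706 genes lower. There the share of members lay above that of all genes, as it did when the unnumbered library was left out. In the fit with 1 term per group and every library it lay below. The count was 4 for 4 dpi inhibitor over 4 dpi control, all lower, beside 575 genes lower. It was 19 for 4 dpi control over uninjured, all lower, beside 369 genes lower and 372 higher. The count was 13 for 4 dpi inhibitor over uninjured inhibitor, 12 lower and 1 higher, beside 438 genes lower and 1791 higher. It was 0 for the interaction. In that block fit GLRB was at -0.35 and HTR3B at 0.12 in uninjured inhibitor cords.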
